A study of Mus musculus with 6 samples.

Results

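Gene expression of the SR proteins and the heterogeneous nuclear ribonucleoproteins (hnRNPs), the best-known regulators of alternative splicing, was measured in mouse group 3 innate lymphoid cells (ILC3s). Splicing itself was not measured. Members were taken by name: every row of the deposited count table whose Ensembl identifier carries a protein-coding symbol that begins with Srsf or Hnrnp. The rule found 31 genes, 11 of them Srsf and 20 Hnrnp, among 55401 rows. A further 2 rows with these prefixes, Hnrnpa1l2-ps and Hnrnpa1l2-ps2, are processed pseudogenes and were left out. All 31 genes passed the filter on low counts. RNA was sequenced in 6 bulk libraries, 3 from cells treated beforehand with vehicle and 3 from cells treated with PEox, all labelled as wild-type ILC3s of the small-intestinal lamina propria. The labels do not spell PEox out; it commonly stands for oxidised phosphatidylethanolamine, a product of lipid peroxidation. No dose, time or route of exposure, no age in days and no sex was given in the sources used here. The labels do not state that the libraries came from separate mice, and every p-value reflects the variation among the 6 libraries alone, which could be technical.

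The cell type label and the protocol text differ, because the protocol names sorted EpCAM-positive, CD45-negative epithelial cells of pups. Levels are given in CPM, which are counts scaled to the library's total after that total was adjusted by a composition factor (TMM). In the data, 20 ILC3 marker genes summed to between 20900 and 21090 CPM in the vehicle libraries and between 12080 and 12220 in the PEox libraries. The 18 epithelial markers summed to between 102.9 and 116.6 CPM in vehicle and between 63.17 and 69.27 CPM in PEox, and 3 of the 18 were at 0 in every library. Libraries held between 56252806 and 66849230 counts. Of these unadjusted counts, the 31 genes took between 0.7636% and 0.7706% in vehicle and between 0.7029% and 0.7139% in PEox. CPM sums differ from these shares by the composition factors.

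SR proteins carry RNA recognition motifs (RRMs) and a tail rich in arginine and serine. They bind exonic enhancers and recruit the spliceosome to nearby splice sites. hnRNPs coat nascent transcripts, often bind silencer elements and often oppose SR proteins at the same exon, and several also act in mRNA export, stability and translation. Many genes of both families limit their own expression by splicing in exons that send the transcript to nonsense-mediated decay, and in lymphocytes their balance shapes transcripts such as that of the phosphatase CD45.

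Of the 31 genes, 15 fell in PEox, 3 rose and 13 did not pass the test (edgeR quasi-likelihood test, Benjamini-Hochberg adjusted p under 0.05 over all tested genes, n = 3 libraries per group). Of 18253 genes tested, 37.1% were called in either direction, 18.8% as lower and 18.3% as higher. Of the 31 genes, 58.06% were called in either direction, 48.39% as lower and 9.677% as higher. Their median log2 fold change was -0.22, against 0.00074 over all tested genes. The 31 genes together held 8035 ± 51.4 CPM in vehicle (SD, n = 3) and 6750 ± 32.7 CPM in PEox. Values of the vehicle and PEox libraries did not overlap for 21 of the 31 genes (67.74%), and for 50.6% of all tested genes.

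Abundant genes were called more often. Among the 10743 genes with at least 5 CPM in 3 libraries, 60.6% were called, 29.6% as lower and 30.9% as higher. In that fit 30 of the 31 genes were tested, and 19 of them were called, 15 as lower and 4 as higher. The share called in either direction was thus close to that of all genes above this floor. Genes matched to the members in abundance were not compared. Their division between lower and higher was not tested against that of other genes, and it depended on the scaling. Without composition factors, with libraries scaled by their totals, the median of all genes moved by 0.14 on the log2 scale, 9 of the 31 genes were called lower and 8 higher, and 61.9% of all called genes were higher against 49.25% with TMM factors. Removal of the length and GC trend also moved the median of all genes by 0.14, and then 13 of the 31 genes were called lower, 5 were called higher and 61.21% of all called genes were higher. The members' median minus that of all genes was -0.22 with TMM factors and with library size scaling, -0.33 with the length and GC trend removed and -0.15 without PEox library 1, the extremes of the 15 alternatives.

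**Figure D1:**
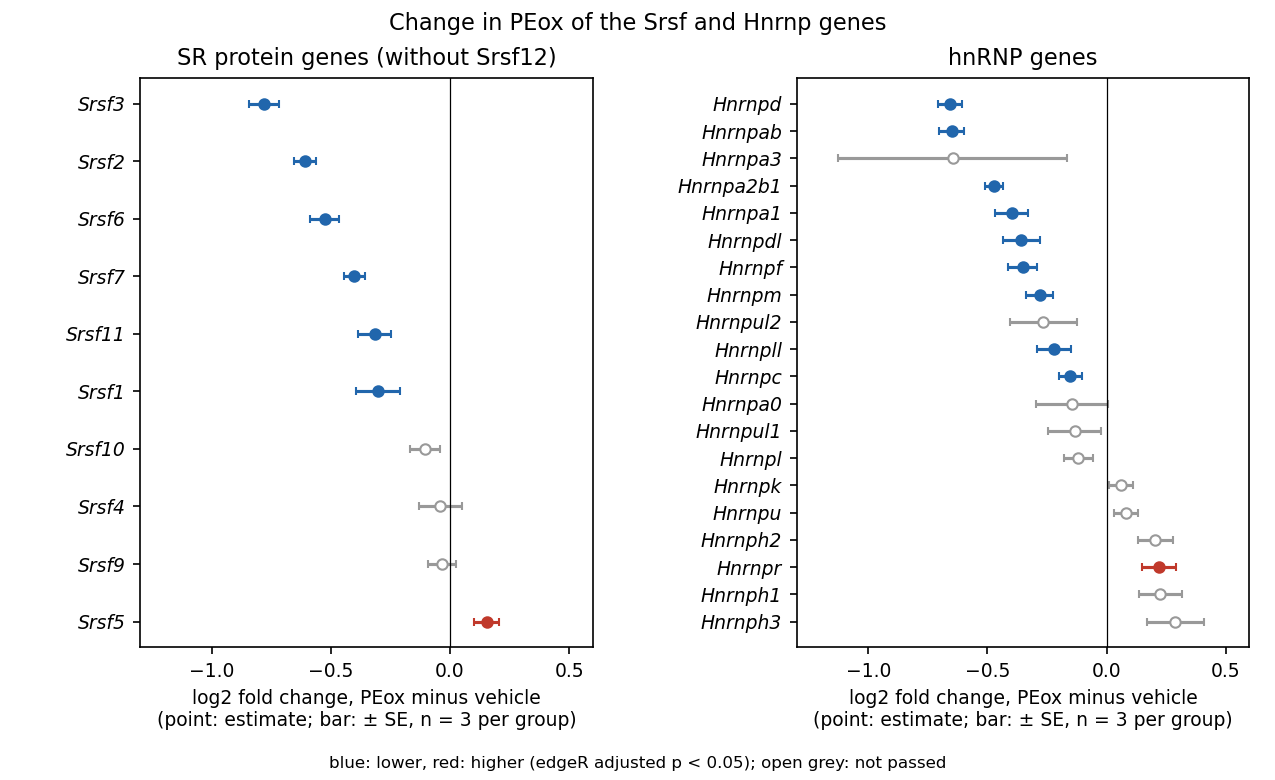
Log2 fold change (PEox minus vehicle, x axis) of each Srsf gene except Srsf12 (left) and each Hnrnp gene (right), with points for the estimate and bars for its standard error, 3 libraries per group. Filled blue points are genes called lower, led by Srsf3 at -0.78 and Hnrnpd at -0.66, filled red points are Srsf5 and Hnrnpr, which were called higher, and open grey points did not pass the test; Srsf12 lies off the scale at 2.96.

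Other cell programmes differed between the same libraries. Of the 20 ILC3 markers, 12 fell and 3 rose, namely Kit, Il17f and Tox. Their mean sum went from 20970 CPM in vehicle to 12150 CPM in PEox, of which Il22 alone held 6724 and 2513 CPM. All 12 genes of dividing cells fell, and their sum went from between 862.5 and 901.0 CPM in vehicle to between 215.8 and 225.9 CPM in PEox. Markers of B and plasma cells fell for 10 of 11 tested genes, from a mean sum of 745.2 to 200.5 CPM, and those of ILC1 and NK cells for 10 of 11, from 580.1 to 211.6 CPM. For T cells 7 of 12 fell and 1 rose, with a mean sum of 1077 CPM in vehicle and 785.1 CPM in PEox. Most of that sum lay in Trbc1 (368.8 and 283.6 CPM in vehicle and PEox) and Trbc2 (583.9 and 442.9 CPM). Cd3g came next (73.45 and 26.54 CPM), and Trac was low (1.176 and 0.7371 CPM). The sum is therefore no measure of the share of T cells. Markers of mast cells, basophils and eosinophils fell for 5 of 9 tested genes and rose for 1, with mean sums of 149 and 26.8 CPM in vehicle and PEox. Those of macrophages, dendritic cells and neutrophils fell for 6 of 13, with 280.2 and 161 CPM, and those of ILC2 fell for 3 of 8 and rose for 1, with 197 and 149 CPM. Erythroid markers rose for 5 of 9 tested genes, from 3068 to 5741 CPM, and none was called lower. Stroma and endothelium markers rose for 5 of 11 and fell for 1, with mean sums of 263 and 397 CPM. The part of these markers in the values of the splicing regulators was not tested. In bulk RNA, fewer cells of a type and less RNA per cell cannot be told apart.

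Promoter sequences are shown for the member with the most negative fold change in each family (Srsf3 and Hnrnpd), for Srsf2, which fell next after Srsf3 among the SR genes, and for Srsf5, the abundant SR gene that rose. They are RefSeq windows of the GRCm38.p6 build, from 250 bases before to 50 bases after a start site, read 5′ to 3′ on the strand of the gene. Capitals mark matches, on either strand, to any of 8 motifs: the TATA box (letters searched TATAAA), the box read by the factor NF-Y (letters searched CCAAT), the GC box (letters searched GGGCGG) and the E-box (letters searched CACGTG), together with the cyclic AMP response element (letters searched TGACGTCA), the core bound by ETS factors (letters searched CCGGAA), the core of the antioxidant response element (letters searched TGACNNNGC) and the core bound by YY1 (letters searched AAGATGGC). Overlapping matches run into 1 stretch of capitals. Srsf3 is at chr17:29032410-29032709 on the plus strand, Srsf2 at chr11:116853045-116853344 on the minus strand, Hnrnpd at chr5:99978889-99979188 on the minus strand and Srsf5 at chr12:80945249-80945548 on the plus strand.
Srsf3: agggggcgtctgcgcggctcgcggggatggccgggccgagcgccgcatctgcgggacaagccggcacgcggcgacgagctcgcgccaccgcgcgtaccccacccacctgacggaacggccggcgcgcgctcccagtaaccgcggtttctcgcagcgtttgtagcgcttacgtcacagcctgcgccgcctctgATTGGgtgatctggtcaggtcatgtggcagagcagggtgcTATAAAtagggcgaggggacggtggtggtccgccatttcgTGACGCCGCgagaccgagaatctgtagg
Srsf2: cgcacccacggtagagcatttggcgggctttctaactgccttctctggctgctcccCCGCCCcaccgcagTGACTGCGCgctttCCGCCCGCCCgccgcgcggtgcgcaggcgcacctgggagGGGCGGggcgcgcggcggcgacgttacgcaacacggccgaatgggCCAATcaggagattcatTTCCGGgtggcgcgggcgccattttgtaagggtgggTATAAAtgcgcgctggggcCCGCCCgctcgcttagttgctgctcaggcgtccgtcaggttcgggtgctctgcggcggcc
Hnrnpd: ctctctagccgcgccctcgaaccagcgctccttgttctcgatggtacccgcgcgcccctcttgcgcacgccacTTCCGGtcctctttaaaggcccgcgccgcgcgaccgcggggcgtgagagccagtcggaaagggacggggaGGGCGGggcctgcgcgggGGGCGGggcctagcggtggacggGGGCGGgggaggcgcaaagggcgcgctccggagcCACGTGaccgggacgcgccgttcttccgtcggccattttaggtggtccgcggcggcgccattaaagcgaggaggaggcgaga
Srsf5: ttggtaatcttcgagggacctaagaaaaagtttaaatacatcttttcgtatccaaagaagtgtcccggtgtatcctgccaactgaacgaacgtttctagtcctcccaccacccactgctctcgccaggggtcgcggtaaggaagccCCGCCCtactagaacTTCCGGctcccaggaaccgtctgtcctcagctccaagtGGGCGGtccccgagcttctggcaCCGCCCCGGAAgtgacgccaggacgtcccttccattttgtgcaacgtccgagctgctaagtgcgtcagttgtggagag
The Srsf3 window held 3 matches, a CCAAT box, a TATA box and an antioxidant response element core. The Srsf2 window held 9, among them a TATA box, and the Hnrnpd and Srsf5 windows held 5 each and no TATA box.

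RefSeq windows were found for 29 of the 31 genes, 41 windows in all, and were compared with 13804 windows of 10819 genes. The members' windows were GC-rich, with a median GC content of 68.33% against 60.33% and a median of 31 CpG dinucleotides against 19. The GC box was present in 82.93% of the members' windows and 59.71% of all, and the CCAAT box in 51.22% against 37.45%. The ETS core was present in 41.46% against 25.49%, the antioxidant response element core in 29.27% against 14.29%, the TATA box in 9.756% against 7.708% and the E-box in 12.2% against 9.439%. The YY1 core stood in 2.439% against 4.079%, and the cyclic AMP response element in 0% of the members' windows and 2.934% of all. Windows of 1 gene can overlap, and motifs rich in G and C follow base composition. The 4 genes with TATAAA letters anywhere in a window, Srsf2, Srsf3, Hnrnpab and Hnrnpm, were all among the 14 genes with a window that fell. Position in the window was not used, and the Hnrnpm match lies near the upstream end, far from the start site. An ETS core stood in 8 of those 14, in 2 of the 3 that rose and in 2 of the 12 that did not pass. The GC box stood in 10, 3 and 11 genes of these respective groups, the CCAAT box in 8, 1 and 8, the antioxidant response element core in 5, 1 and 3, the E-box in 3, 0 and 2 and the YY1 core in 0, 0 and 1. These splits were not tested. A match is a description of the sequence and was not tested for binding.

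The SR proteins with a single RRM, Srsf2, Srsf3 and Srsf7, all fell. Their sum was 1091 ± 31.1 CPM in vehicle and 728 ± 2.35 CPM in PEox. Srsf3, the smallest SR protein, which couples splicing to 3′ end processing and mRNA export, was measured at 355, 375 and 407 CPM in vehicle libraries 1 to 3 and at 216, 233 and 213 CPM in PEox libraries 1 to 3. The lowest vehicle library thus lay far above the highest PEox library. Its level dropped by 41.8%, with a log2 fold change and its SE of -0.78 ± 0.06 (edgeR adjusted p = 4.4e-05). Srsf2, a component of nuclear speckles also known as SC35, stood at 312, 307 and 305 CPM in vehicle and at 209, 195 and 202 CPM in PEox. Replicates of each group were close together and the groups did not overlap. Its log2 fold change was -0.61 ± 0.05 (edgeR adjusted p = 3.22e-05). Srsf7, whose RRM is joined by a zinc knuckle, stood at 391, 413 and 408 CPM in vehicle and at 304, 298 and 314 CPM in PEox. It fell by 24.4%, with a log2 fold change of -0.40 ± 0.04 (edgeR adjusted p = 0.000208). All 3 calls held in each of the 15 alternatives tried.

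Srsf3 and Srsf7 are close paralogs, and their relative level also differed. Within each library, Srsf3 counts were 0.906, 0.908 and 0.997 times those of Srsf7 in vehicle and 0.71, 0.779 and 0.678 times in PEox. The groups did not overlap, the difference of the log2 ratios was -0.38, and the exact two-sided permutation p was 0.1, the smallest that 3 against 3 libraries allow. Such ratios within a library do not depend on how libraries are scaled to each other. Of 16 paralog pairs compared in this way, 8 did not overlap between the groups. Among single tested genes the share without overlap was 50.6%. Pairs of other genes were not compared, and several of the 16 pairs share a gene.

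SR proteins with a pair of RRMs did not move together. Srsf6 and Srsf1 fell, Srsf5 rose, and Srsf4 and Srsf9 did not pass. Srsf6 was measured at 234, 240.4 and 252 CPM in vehicle and at 166, 180.1 and 159 CPM in PEox. It fell by 30.5% without overlap between the groups, a log2 fold change of -0.53 ± 0.06 (edgeR adjusted p = 0.000285). Srsf5 went the other way, with 332, 337 and 350.4 CPM in vehicle and 400.0, 372 and 362 CPM in PEox. The groups did not overlap, but the lowest PEox library was close to the highest vehicle library. Its log2 fold change was 0.15 ± 0.05 (edgeR adjusted p = 0.0455). That call was lost in 7 of 15 alternatives, the removal of any 1 vehicle library among them, with adjusted p up to 0.145. Srsf1, the first SR protein described, also called SF2/ASF, ranged from 67.5 to 82.9 CPM in vehicle and from 60.1 to 65.3 CPM in PEox, a log2 fold change of -0.30 ± 0.09 (edgeR adjusted p = 0.0317). The Srsf1 call was lost in 6 of 15 alternatives, with adjusted p up to 0.204. Srsf4 had a log2 fold change of -0.04 ± 0.09 (edgeR adjusted p = 0.777) and Srsf9 of -0.03 ± 0.06 (edgeR adjusted p = 0.73). The direction of both turned under scaling by library size and under removal of the length and GC trend, where Srsf9 was called higher.

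The ratio of Srsf5 to its paralog Srsf6 was 1.42, 1.4 and 1.39 in the vehicle libraries and 2.41, 2.07 and 2.28 in the PEox libraries. Vehicle libraries were almost identical, and each PEox library lay well above them. The log2 ratios differed by 0.68 (exact two-sided permutation p = 0.1). Srsf4 counts were 0.288, 0.29 and 0.262 times those of Srsf6 in vehicle and 0.445, 0.351 and 0.382 times in PEox, a difference of 0.48 on the log2 scale without overlap. Against Srsf5, Srsf4 was lower in PEox, with a difference of -0.20. These 3 ratios share their genes and are not independent of each other.

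**Figure D2:**
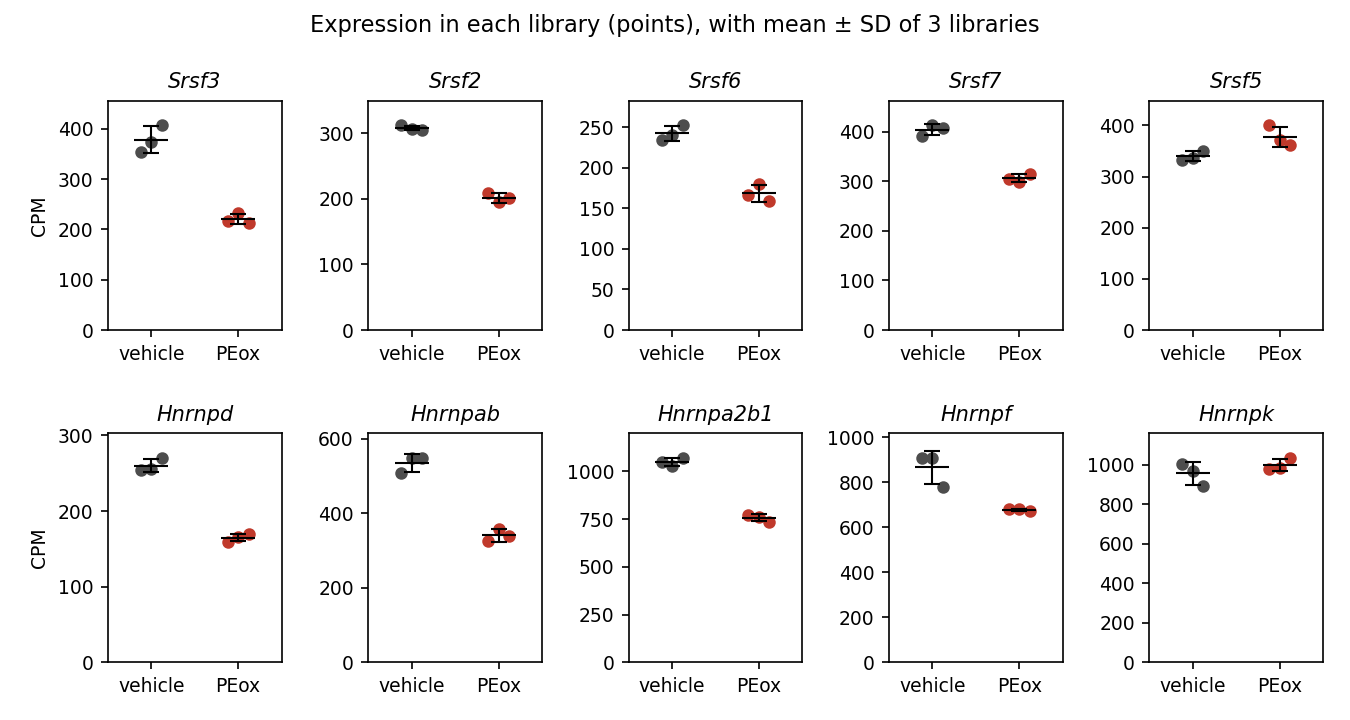
Level in CPM (y axis, from 0) of 5 Srsf and 5 Hnrnp genes in each vehicle library (grey points) and PEox library (red points), with the mean and SD of 3 libraries as black bars. Groups are separate for all genes drawn except Hnrnpk, and Srsf5 is the gene drawn that rose.

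Among the SR-like genes, Srsf11 fell, Srsf12 rose and Srsf10 did not pass. Srsf11 was measured at 212, 199 and 202 CPM in vehicle and at 179, 152 and 161 CPM in PEox, with no overlap and a log2 fold change of -0.32 ± 0.07 (edgeR adjusted p = 0.00686). Scaling by library size ended that call, with an adjusted p of 0.0665. Srsf10, a repressor of splicing when dephosphorylated, was at 143, 145 and 149 CPM in vehicle and at 136, 126 and 144 CPM in PEox. The groups overlapped, and its log2 fold change was -0.10 ± 0.06 (edgeR adjusted p = 0.249). Srsf12, its rarely expressed paralog, had 16, 8 and 3 counts in vehicle and 34, 62 and 111 counts in PEox. These are few counts in libraries of at least 56252806 counts, and the lowest vehicle library is at the floor of 3 counts. Levels were 0.252, 0.141 and 0.0477 CPM in vehicle and 0.578, 1.05 and 1.83 CPM in PEox, a log2 fold change of 2.96 ± 0.81 (edgeR adjusted p = 0.0214). The call was lost in 5 of 14 alternatives, with adjusted p up to 0.0806, among them limma-voom and the removal of PEox library 3 or of vehicle library 2 or 3.

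hnRNP A/B genes encode shuttling proteins that bind exonic silencers. Hnrnpa2b1, known for reading methylated adenosines and for sorting microRNAs, was measured at 1051, 1027 and 1072 CPM in vehicle and 774, 760.3 and 737 CPM in PEox. The replicates differed by far less than the groups, and the level fell by 27.9%, a log2 fold change of -0.47 ± 0.04 (edgeR adjusted p = 4.06e-05). Hnrnpa1, its paralog, stood at 102, 94.4 and 100.5 CPM in vehicle and at 77.8, 77.3 and 70.0 CPM in PEox. It fell by 24.1% without overlap, with a log2 fold change of -0.40 ± 0.07 (edgeR adjusted p = 0.00234). The ratio of Hnrnpa1 to Hnrnpa2b1 had a mean of 0.0941 in vehicle and 0.099 in PEox and overlapped between groups (exact two-sided permutation p = 0.2). Hnrnpa0 ranged from 20.3 to 23.2 CPM in vehicle and from 16.1 to 23.2 CPM in PEox and did not pass (edgeR adjusted p = 0.522).

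Hnrnpa3 is a member whose row is uncertain. Its own row held 11.4, 14.9 and 10.1 CPM in vehicle and 10.9, 2.38 and 9.95 CPM in PEox, and it did not pass, with a log2 fold change of -0.65 ± 0.48 (edgeR adjusted p = 0.353). PEox library 2 stood apart and set most of that fold change, which was -0.22 without it. The gene has 22 near-identical pseudogene copies with rows of their own, defined as at least 95% identity over at least 300 bases. These copies held 90.98% of the summed counts of gene and copies in vehicle and 90.78% in PEox. With the copies added, Hnrnpa3 stood at 129.8, 140.8 and 132.7 CPM in vehicle and at 91.3, 82.1 and 78.6 CPM in PEox. On those sums, a setting chosen after the data were seen, the groups did not overlap and the log2 fold change was -0.67 (edgeR adjusted p = 0.000185). In all, 9 members have 46 such copies, and with copies added 19 members were called, 15 lower and 4 higher. For Hnrnpa1 the 8 copies held 8.551% and 10.12% of the sums in vehicle and PEox, for Hnrnpf the 6 copies held 21.69% and 23.01% of the sums, and for Hnrnpk the 2 copies held 9.731% and 9.426%.

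The hnRNP D and AB genes all fell, from a sum of 865 ± 27.2 CPM in vehicle to 561 ± 23.9 CPM in PEox. Hnrnpd encodes AUF1, which binds AU-rich elements and speeds the decay of many cytokine mRNAs. It was measured at 254, 255 and 270.4 CPM in vehicle and at 159, 166 and 169 CPM in PEox. The groups were far apart, and the level fell by 36.6%, a log2 fold change of -0.66 ± 0.05 (edgeR adjusted p = 3.28e-05). Hnrnpab, a close relative, was at 507, 549 and 548 CPM in vehicle and at 325, 358 and 339 CPM in PEox. It dropped by 36.3%, a log2 fold change of -0.65 ± 0.05 (edgeR adjusted p = 4.8e-05). Hnrnpdl, the third gene of the group, was at 72.8, 70.1 and 68.2 CPM in vehicle and at 50.3, 56.7 and 57.7 CPM in PEox, with a log2 fold change of -0.36 ± 0.08 (edgeR adjusted p = 0.00756). The Hnrnpdl call was lost under scaling by library size (adjusted p = 0.0555).

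Within libraries, the ratio of Hnrnpd to Hnrnpab was 0.501, 0.465 and 0.493 in vehicle and 0.491, 0.464 and 0.499 in PEox. These values overlapped, with a difference of the mean log2 ratios of -0.0058 (exact two-sided permutation p = 0.7). Hnrnpd fell further than Hnrnpdl, with ratios of 3.5, 3.64 and 3.96 in vehicle and 3.17, 2.93 and 2.94 in PEox. That pair did not overlap, and the difference was -0.30 on the log2 scale (exact two-sided permutation p = 0.1).

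**Figure D3:**
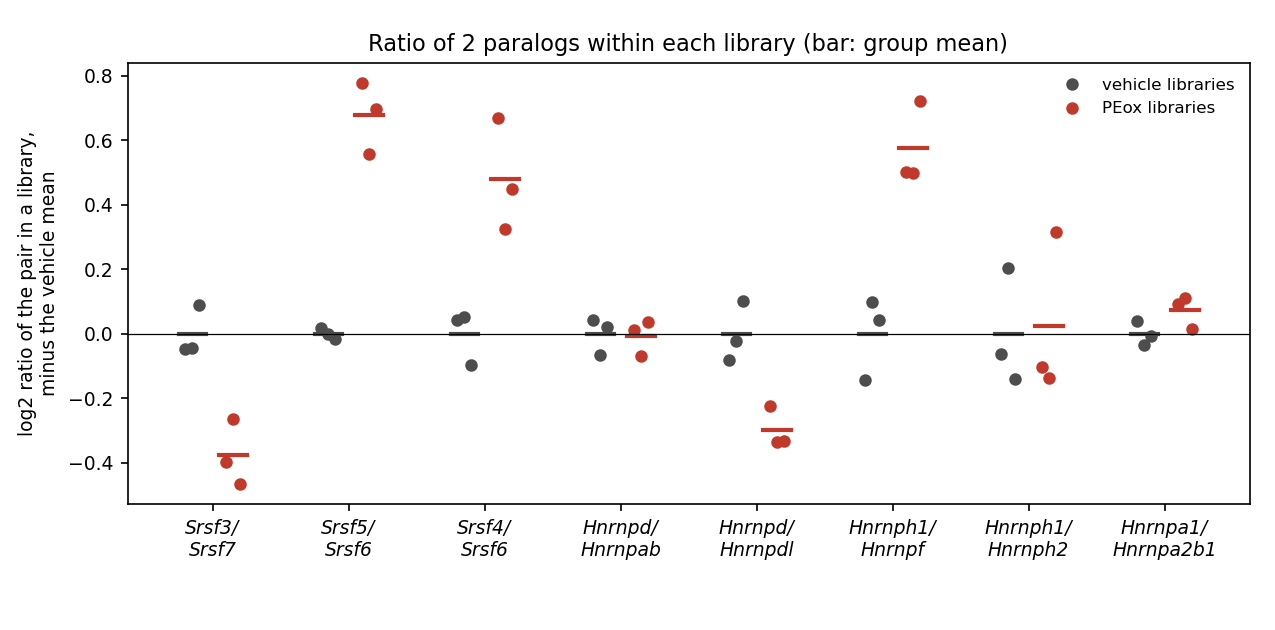
Log2 ratio of 2 paralogs within each library, minus the mean of the vehicle libraries (y axis), for 8 pairs, with grey points for vehicle libraries, red points for PEox libraries and bars for group means. Srsf5/Srsf6, Srsf4/Srsf6 and Hnrnph1/Hnrnpf shifted up by 0.68, 0.48 and 0.57 and Srsf3/Srsf7 and Hnrnpd/Hnrnpdl down, by -0.38 and -0.30, while the other 3 pairs overlapped.

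Proteins of the hnRNP F/H group bind runs of guanines near splice sites and polyadenylation sites. Hnrnpf fell, and its 3 paralogs Hnrnph1, Hnrnph2 and Hnrnph3 had positive log2 fold changes that did not pass. Hnrnpf was measured at 908, 909 and 780.2 CPM in vehicle and at 680.4, 682 and 673 CPM in PEox. Vehicle library 3 was the lowest of its group and still lay above each PEox library. The log2 fold change was -0.35 ± 0.06 (edgeR adjusted p = 0.00243). Hnrnph1 was at 147, 174 and 144 CPM in vehicle and at 172, 172 and 198 CPM in PEox. Its groups overlapped, and the log2 fold change was 0.22 ± 0.09 (edgeR adjusted p = 0.0891). For Hnrnph2 the log2 fold change was 0.21 ± 0.07 (edgeR adjusted p = 0.0563) and for Hnrnph3 it was 0.29 ± 0.12 (edgeR adjusted p = 0.0992). In 5, 5 and 3 of 15 alternatives, respectively, these genes were called higher.

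Relative to Hnrnpf, Hnrnph1 stood higher in every PEox library. The ratios were 0.162, 0.192 and 0.184 in vehicle and 0.253, 0.253 and 0.295 in PEox, a difference of 0.57 on the log2 scale (exact two-sided permutation p = 0.1). The ratio of Hnrnph1 to Hnrnph2, in contrast, had a mean of 1.03 in vehicle and 1.05 in PEox and overlapped (exact two-sided permutation p = 0.8). The summed level of the 4 genes was 1210.0 ± 77.2 CPM in vehicle and 1081 ± 0.518 CPM in PEox.

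Several abundant hnRNPs did not pass the test. Hnrnpk, which binds cytosine-rich RNA and DNA, was at 1006, 970.3 and 895 CPM in vehicle and at 978, 982 and 1036 CPM in PEox. The groups overlapped, and the log2 fold change was 0.06 ± 0.05 (edgeR adjusted p = 0.406). Hnrnpu, the scaffold attachment factor that organises chromatin, ranged from 403 to 432 CPM in vehicle and from 424 to 463 CPM in PEox (log2 fold change 0.08 ± 0.05, edgeR adjusted p = 0.26). Both genes were called higher under scaling by library size. The Hnrnpu paralogs Hnrnpul1 and Hnrnpul2 had log2 fold changes of -0.13 and -0.26 and did not pass. Hnrnpl, a binder of CA repeats, was at 75.5 to 80.4 CPM in PEox and 82.8 to 87.6 CPM in vehicle. These values did not overlap, yet the log2 fold change of -0.12 ± 0.06 did not pass (edgeR adjusted p = 0.18).

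Small changes were called in 4 further hnRNP genes. Hnrnpll, a lymphocyte regulator of CD45 splicing, was at 176, 178 and 170.2 CPM in vehicle and at 136, 150.4 and 164 CPM in PEox, a log2 fold change of -0.22 ± 0.07 (edgeR adjusted p = 0.0449). Hnrnpc, which binds uridine tracts and measures transcript length, had a log2 fold change of -0.15 ± 0.05 and was called lower (edgeR adjusted p = 0.0408). Each of these 2 calls was lost in 10 of 15 alternatives, with adjusted p up to 0.437 for Hnrnpll and 0.847 for Hnrnpc. Hnrnpm ranged from 384 to 442 CPM in vehicle and from 339 to 351 CPM in PEox, with a log2 fold change of -0.28 ± 0.06 (edgeR adjusted p = 0.00559), and that call ended only under scaling by library size, with an adjusted p of 0.078. Hnrnpr was the hnRNP gene that rose, from 87.9, 90.6 and 92.6 CPM in vehicle to 96.8, 113 and 106 CPM in PEox. Its groups did not overlap, and the log2 fold change was 0.22 ± 0.07 (edgeR adjusted p = 0.0398). This call was lost in 7 of 15 alternatives, with adjusted p up to 0.78.

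Levels can be compared between genes only per length of transcript. Per kilobase of the longest coding transcript, Hnrnpa2b1 stood first, at 608 ± 13.0 CPM per kb in vehicle and 438 ± 11 in PEox. Hnrnpf followed with 361 ± 30.9 CPM per kb in vehicle and Hnrnpk with 322 ± 19.1, and these neighbours did not differ beyond their spread. In PEox the order of the latter 2 was reversed, with 336 ± 10.9 CPM per kb for Hnrnpk and 283 ± 2.02 for Hnrnpf. The highest SR genes were Srsf5 at 217 ± 5.97, Srsf7 at 168 ± 4.71 and Srsf2 at 162 ± 2.0 CPM per kb in vehicle, of which the latter 2 lay within their spread. In PEox, Srsf5 stood at 241 ± 12.6, Srsf7 at 127 ± 3.37 and Srsf2 at 106 ± 3.89 CPM per kb. This order depends on the transcript chosen, since with the median transcript length Hnrnpk stood first, at 1005 CPM per kb in vehicle. At the low end, Srsf12 had 0.05 CPM per kb in vehicle, Hnrnpa3 had 2.35 ± 0.483 in its own row and Hnrnpul2 had 2.5 ± 0.193, and the latter 2 did not differ beyond their spread.

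Gene-level counts add up all isoforms and cannot tell a productive transcript from one bound for decay. In the GENCODE M21 annotation, 19 of the 31 genes (61.29%) have a transcript classed as a target of nonsense-mediated decay, against 3804 of 13860 tested protein-coding genes (27.45%). The share was 81.82% (9 of 11) for Srsf genes and 50% (10 of 20) for Hnrnp genes. Transcripts with a retained intron are annotated for 22 of the 31 genes (70.97%) and for 56.54% of tested protein-coding genes. Members have a median of 7 annotated transcripts against 5. In addition, 16 members overlap another annotated gene, 12 of them a gene on the opposite strand, and whether the counting used strand was not given in the sources used here. Srsf2 is one of these, since its locus overlaps Mettl23. Hnrnpm overlaps March2 on the same strand, and March2 had means of 303.4 CPM in vehicle and 274.3 CPM in PEox. The part of this overlap in the Hnrnpm counts was not tested.

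Genes that work with the SR and hnRNP proteins were read from the same fit in 7 lists. Over all tested genes, 18.8% were called lower and 18.3% higher, and among genes of at least 5 CPM 29.6% and 30.9%. The list of Snrp and Lsm genes had the highest share of lower calls among the 7. It was taken by name, and not all of its genes encode proteins of the spliceosome core, among them Lsm14a, the gene that rose. Of 25 genes, 20 fell and 1 rose, and the median log2 fold change was -0.77. Their sum went from 2802 ± 58.9 CPM in vehicle to 1742 ± 39.5 CPM in PEox. These values are from the reported fit, which does not adjust for transcript length or GC content. Removal of that trend changed calls among the SR and hnRNP genes, and its effect on this list is not given here. Lsm4 fell from 211 ± 5.0 to 101 ± 2.56 CPM (edgeR adjusted p = 3.54e-06). Snrpd1, a subunit of the Sm ring, went from 106 ± 4.11 to 36.2 ± 4.01 CPM, a log2 fold change of -1.55 (edgeR adjusted p = 9.93e-06). Snrpe and Lsm7 fell as well, with log2 fold changes of -1.18 and -1.09. The difference between these lists and the SR and hnRNP genes was not tested.

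Among 23 kinases, phosphatases and transport factors, 8 rose (34.78%), 2 fell (8.696%) and the median log2 fold change was 0.17. The share of higher calls was near the 30.9% of genes of at least 5 CPM, of which 29.6% were called lower. These shares were not tested against each other. Tnpo3, the import receptor of SR proteins, rose from 79.5 ± 7.38 CPM in vehicle to 140.4 ± 13.7 CPM in PEox (log2 fold change 0.82, edgeR adjusted p = 0.000297). Tnpo1, which imports hnRNP A1 and its relatives, rose from 44.4 ± 2.29 to 84.2 ± 4.98 CPM (log2 fold change 0.92, edgeR adjusted p = 5.24e-05). The kinase gene Dyrk1a and the mRNA export receptor gene Nxf1 rose by 0.93 and 0.53 on the log2 scale. The Srpk and Clk genes of the list, which encode kinases of SR tails and are given as whole families after their values were seen, did not move together. Srpk1 and Clk3 rose, with log2 fold changes of 0.23 (edgeR adjusted p = 0.00793) and 0.25 (edgeR adjusted p = 0.00817). Srpk3 fell, from 4.8, 5.62 and 3.54 CPM in vehicle to 0.272, 0 and 0 CPM in PEox (edgeR adjusted p = 0.00449). Srpk2 at 0.29, Clk1 at 0.08, Clk2 at -0.0048 and Clk4 at -0.02 did not pass.

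SR-related proteins and cofactors were mixed, with 6 higher, 11 lower and a median of -0.17 over 31 tested genes. Rsrp1 rose from 421 ± 11.5 to 708 ± 34.3 CPM (log2 fold change 0.75, edgeR adjusted p = 1.38e-05) and the cyclin gene Ccnl2 by 0.60 on the log2 scale. Srrm2, which encodes a scaffold of nuclear speckles, and U2af1, a subunit of the factor that recognises the 3′ splice site, had log2 fold changes of -0.58 and -0.66 and both fell. Of 37 tested hnRNP-like RNA-binding proteins, 7 rose and 13 fell, with a median of -0.09 that became 0.045 under library size scaling. The cold-inducible Rbm3 fell from 325 ± 25.2 to 139 ± 5.7 CPM (log2 fold change -1.23, edgeR adjusted p = 6.7e-06), Ybx3 and Rbmxl1 fell with -0.70 and -0.62, and the helicase gene Ddx5 rose by 0.30.

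Of 25 tested tissue-type splicing regulators, 8 rose and 5 fell, with a median of 0.21. Celf1 rose by 0.89, Mbnl2 by 0.65 and Rbm6 by 0.62, and Rbm25 fell by 0.40 on the log2 scale. Of 23 genes of nonsense-mediated decay and the exon junction complex, 8 rose and 6 fell, with a median of -0.04 that became 0.099 under library size scaling. Dhx34, Smg8 and Pnrc2 rose by 1.05, 0.91 and 0.55, whereas Rbm8a, a core subunit of the junction complex, fell by 0.63. Of 11 tested arginine methyltransferases and partners, which modify many hnRNPs, 3 rose and 6 fell, with a median of -0.19. Prmt1, the main enzyme of this kind, dropped from 47.9 ± 2.18 to 24.2 ± 2.08 CPM (log2 fold change -0.98, edgeR adjusted p = 0.000126). Wdr77 and Prmt3 fell by 0.37 and 0.48, and Prmt6 rose by 0.64.

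**Figure D4:**
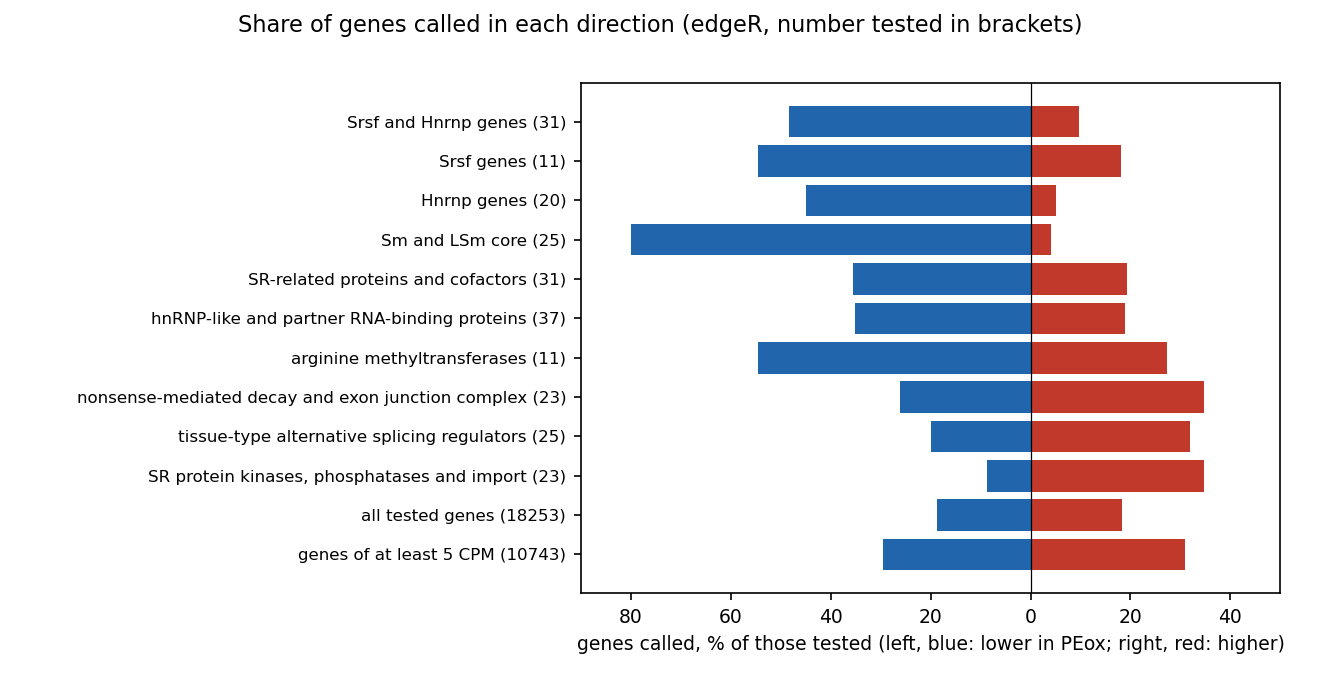
Share of tested genes called lower (blue, left) and higher (red, right) in PEox, in percent on the x axis, for the Srsf and Hnrnp genes, the 7 lists of related genes, all 18253 tested genes and the 10743 genes of at least 5 CPM. The Srsf and Hnrnp genes had 48.39% lower and 9.677% higher calls. The list of Snrp and Lsm genes, drawn as Sm and LSm core, had 80% lower calls. Calls were not adjusted for transcript length or GC content.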

How the data were processed

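Counts per gene were deposited by the authors as 1 table of raw whole numbers for 55401 Ensembl identifiers. Per the labels' protocols and the submitters' processing notes, paired 150 bp reads were cleaned with fastp and aligned with HISAT2 2.0.5, and edgeR 3.22.5 is named. The sources used here do not give the read counter, genome build, annotation or strand setting, and copies and overlapping genes are therefore uncertain. Count columns were matched to samples by title, with 0 left unused. Identifiers without a symbol (260) held 0.015% to 0.0191% of a library's counts.

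Counts were tested in R 4.3.3 with edgeR 4.0.16 (filterByExpr, TMM factors from 0.951 to 1.05, robust quasi-likelihood test, group as the single term), with Benjamini-Hochberg adjustment over 18253 genes at 0.05. The common biological coefficient of variation was 34.5%. CPM use the TMM factors. Total counts were 66849230, 59524577 and 65747460 in vehicle and 56252806, 56542297 and 57532484 in PEox. With the TMM factors, 3 counts equal 0.0472 to 0.0529 CPM, which covers counting error only. No library looked like a copy of another: replicates differed beyond sampling noise. Paralog ratios used a prior of 0.5 counts and an exact permutation test. Transcript lengths and classes came from GENCODE M21, which may not be the annotation behind the counts, and pseudogene copies from BLAST 2.17.0 of transcripts. On simulated data for PEox against vehicle with 17413 genes tested, the test recovered 73% of 100 genes with a log2 change of 1. It recovered 85% of 100 with a change of 2, and 11 of 17213 unchanged genes were called. The changed genes were drawn from those above a floor on the mean count. Smaller changes, such as those of all members but Srsf12, were not simulated.

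The members, classes, lists and pairs were chosen with earlier results of these data known. Values in every library are given for the 5 called members at either end of the fold changes in each family, the 3 highest per kb in each family and members of pairs whose ratios did not overlap and differed by at least 0.5; up to 4 genes per list with the smallest p-values are named. The alternatives comprised library size scaling, RLE scaling, no filter, at least 5 CPM in 3 libraries, a replicate block, leaving out each library, DESeq2 1.42.0, limma-voom (limma 3.58.1), removal of length and GC trends, a ratio prior of 5 counts and, added after seeing the data, pseudogene copies added to their genes.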

Additional observations from a re-analysis of the deposited data

How the results depend on the processing

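Of the 18 calls, 9 held in all 15 alternatives (Srsf2, Srsf3, Srsf6, Srsf7, Hnrnpa1, Hnrnpa2b1, Hnrnpab, Hnrnpd and Hnrnpf) and 9 were lost in some. Sizes of the 9 that held still varied. Their weakest log2 fold changes were -0.37, -0.64, -0.39, -0.27, -0.20, -0.26, -0.50, -0.52 and -0.21, in the order listed. For Hnrnpa1 the weakest came with the length and GC trend removed (edgeR adjusted p = 0.0488). The number of members called higher, 3 in the reported fit, was 8 under library size scaling, 1 without the low count filter, 5 with DESeq2, 5 with the length and GC trend removed, and 0 to 2 when a library was left out; the number called lower, 15, was 9 under library size scaling and 12 to 13 when a library was left out. Replicate numbers were not found to pair the libraries (correlations of deviations 0.00541, 0.0135 and -0.00583), and with a replicate block 14 members were called, 2 higher and 12 lower, with 6159 genes in all; Srsf1, Srsf5, Srsf12, Hnrnpc and Hnrnpll were lost and Hnrnph3 was gained. Library size scaling reversed the log2 fold changes of Hnrnpul1 (0.0026), Srsf10 (0.032), Srsf4 (0.096), Srsf9 (0.10) and Hnrnpl (0.018) and the medians of the hnRNP-like list (0.045) and the nonsense-mediated decay list (0.10). Removal of the length and GC trend reversed Hnrnpu (-0.049), Srsf4 (0.15) and Srsf9 (0.43, adjusted p = 0.00144). Leaving out a library gave -0.13 to 0.019 for Srsf4, positive only without PEox library 3. The median of the nonsense-mediated decay list was 0.00017 with at least 5 CPM and -0.074 to 0.098 when a library was left out. Ratios that reversed when a library was left out were Hnrnpa1/Hnrnpa3 (-0.22 to 0.88) and Hnrnpa2b1/Hnrnpa3 (-0.28 to 0.81), both negative only without PEox library 2, Hnrnpd/Hnrnpab (-0.038 to 0.026) and Hnrnph1/Hnrnph2 (-0.12 to 0.13). The cause of these moves was not tested. Depth limits Srsf12, at 3 to 16 counts in vehicle.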
